A study of Mus musculus with 2 samples.

Results

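YY1 peaks that were listed after cold exposure and not at room temperature, and whose summit lay within 1 kb of an end of exactly 1 protein-coding gene, were taken from the deposited peak lists of mouse fat cells. There were 661 such peaks among 1259 cold peaks, or among 1424 entries of both lists, and they lay at 647 genes. They are called cold-only single-gene peaks here. A peak was cold-only where its interval overlapped no room temperature interval by 1 bp or more. The choice used the presence and absence of list entries, so the height of these peaks in the cold library is given as a description and without a test.

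The libraries were made with an antibody to YY1 from mature adipocytes, which were separated with collagenase from the inguinal subcutaneous fat (iWAT) of male wild-type C57 mice, 8 to 10 weeks old. One library came from mice raised at room temperature, the other from mice after 7 days of cold stress. There was 1 library per condition, so no difference between conditions has a replicate check. How many mice went into each is not given here. The series calls the assay ChIP-seq, while the protocol describes CUT&Tag, in which a transposase bound to the antibody tags nearby DNA in native nuclei. Peak names carry the number 30 for the room temperature library and 4 for the cold one, with no statement of what these numbers mean.

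YY1 is a zinc finger protein that binds DNA at a short sequence built around the letters CCAT, or ATGG on the other strand. It can activate or repress transcription and works with chromatin remodelling complexes such as INO80. In many cell types its sites lie close to the start of transcription of genes that every cell uses, among them genes of ribosomes and mitochondria. Inguinal fat is a white depot in which cold can induce thermogenic adipocytes.

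The RefSeq promoter table (GRCm38.p6, the assembly of mm10) gives 250 bases before and 50 bases from each annotated start of transcription, and it held promoters of 527 of the 647 genes. An exact search was made for AANATGGCG, where N is any base, on both strands. The 4 promoters shown next belong to the strongest cold-only single-gene peaks whose match lay before the start. They are printed in the direction of the gene up to 30 bases from the start, with the match in capitals, because they show the longest of the 3 YY1 sequences searched in its place relative to the start.

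Txndc15 (chr13:55714400-55714679, + strand): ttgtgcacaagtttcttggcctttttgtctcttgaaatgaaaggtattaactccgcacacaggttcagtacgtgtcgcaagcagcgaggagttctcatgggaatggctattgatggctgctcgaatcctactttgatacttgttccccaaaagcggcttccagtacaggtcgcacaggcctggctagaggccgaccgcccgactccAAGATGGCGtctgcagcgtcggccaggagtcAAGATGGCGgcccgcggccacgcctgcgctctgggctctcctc
Usp31 (chr7:121707413-121707692, - strand): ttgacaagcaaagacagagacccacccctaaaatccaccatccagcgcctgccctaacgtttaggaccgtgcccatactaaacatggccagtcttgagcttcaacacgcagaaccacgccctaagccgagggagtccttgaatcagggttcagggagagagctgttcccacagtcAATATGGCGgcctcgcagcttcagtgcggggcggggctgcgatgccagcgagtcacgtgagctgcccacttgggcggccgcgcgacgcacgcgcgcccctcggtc
Ech1 (chr7:28825088-28825367, + strand): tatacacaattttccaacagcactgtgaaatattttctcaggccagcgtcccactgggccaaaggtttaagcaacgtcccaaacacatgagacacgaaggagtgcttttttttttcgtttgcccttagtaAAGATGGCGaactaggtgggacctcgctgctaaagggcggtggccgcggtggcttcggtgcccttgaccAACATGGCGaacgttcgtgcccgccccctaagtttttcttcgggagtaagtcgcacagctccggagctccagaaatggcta
Mcmbp (chr7:128740400-128740679, - strand): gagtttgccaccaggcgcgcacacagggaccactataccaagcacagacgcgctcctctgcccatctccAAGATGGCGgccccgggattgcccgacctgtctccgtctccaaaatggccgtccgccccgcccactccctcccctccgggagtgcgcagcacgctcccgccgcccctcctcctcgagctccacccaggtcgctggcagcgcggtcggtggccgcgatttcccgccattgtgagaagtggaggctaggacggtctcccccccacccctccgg

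In most genes with a match the site lay after the start and read in the direction of the gene. The 10 strongest peaks of this kind are shown as 30 bases around the site, again with the match in capitals.

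Exosc2 (chr2:31670726-31670755): tcattggcgccAAGATGGCGttggagatga
Rpl13a (chr7:45128699-45128728): ggcggctgccgAAGATGGCGgaggggcagg
Use1 (chr8:71367221-71367250): cgcccttttctAAGATGGCGcaggcggaag
Mrps18a (chr17:46111004-46111033): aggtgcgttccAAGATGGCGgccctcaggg
Pafah1b1 (chr11:74723811-74723840): tcctcgctctcAAAATGGCGgccgcgacgg
Tango6 (chr8:106683078-106683107): ccgccacattcAAAATGGCGgccgcgctgg
Utp20 (chr10:88826788-88826817): cctggctttccAACATGGCGgcgcccagcg
Yars2 (chr16:16302970-16302999): gcgtgtcccgcAAGATGGCGgcgcccatgc
Ubn2 (chr6:38433939-38433968): gtgggggatccAACATGGCGgctgcggcga
Fmc1 (chr6:38534859-38534888): ccaaggacagaAAAATGGCGgccctggggt

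The free base of the match was mostly G. Among 191 distinct sites in promoters of the 527 genes it was G at 112 (58.6%, exact 95% binomial interval 51.3 to 65.7), A at 40, C at 31 and T at 8. The share of G was similar in promoters of genes without a cold peak at an end, at 156 of 285 sites (54.7%, 48.8 to 60.6). The match was followed by the bases GC at 107 sites (56%, 48.7 to 63.2), as in 7 of the 10 sites above. Matches in promoters of genes without a cold peak at an end were followed by GC at 95 of 279 sites (34.1%, 28.5 to 39.9). The letters ATG within the motif are also those that open a coding sequence, and coding starts were not looked up.

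The height of a peak is given as the number of sequenced fragments that cover its summit, recovered from the authors' deposited fold enrichment and −log10 p. The cold-only single-gene peaks carried 6 to 92 fragments, with a median of 19 and quartiles of 14 and 25, on a local background of 0.57 to 3.32 fragments. The highest was at Txndc15, which encodes a thioredoxin-domain protein (chr13:55714344-55714853), with 92 fragments (exact 95% Poisson interval 74.2 to 113). Its summit lay 26 bp outside the gene, and both copies of the motif shown above lay within 17 bp of it. Usp31, a ubiquitin-specific protease gene (chr7:121707342-121707851), carried 83 fragments (66.1 to 103) at a summit 102 bp before the nearest start. Neither had an entry at room temperature, which is a missing value and not a measured 0.

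Next in height were a peak inside Lemd2, an inner nuclear membrane protein gene, with 76 fragments, and peaks just outside the RNA exosome subunit gene Exosc2 with 75 and the fatty acid oxidation gene Ech1 with 73. The summit at Exosc2 lay 73 bp before the start and 99 bp from its motif, which begins at base 23 of the transcript. At Ech1 both motifs lay within 36 bp of the summit. The ribosome biogenesis gene Wdr75 carried 68 fragments, Szrd1 67, Mcmbp, which encodes a binding partner of the replicative MCM helicase, 65, and Ccdc25 64. Deptor, an inhibitor of mTOR signalling, and Tor1a, a torsin ATPase of the endoplasmic reticulum and nuclear envelope, carried 61 fragments each (46.7 to 78.4), and Caml, of the pathway that inserts tail-anchored membrane proteins, 60. The Poisson intervals of neighbours in this order overlapped, so the order within these 12 peaks is not resolved by counting error.

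**Figure D1:**
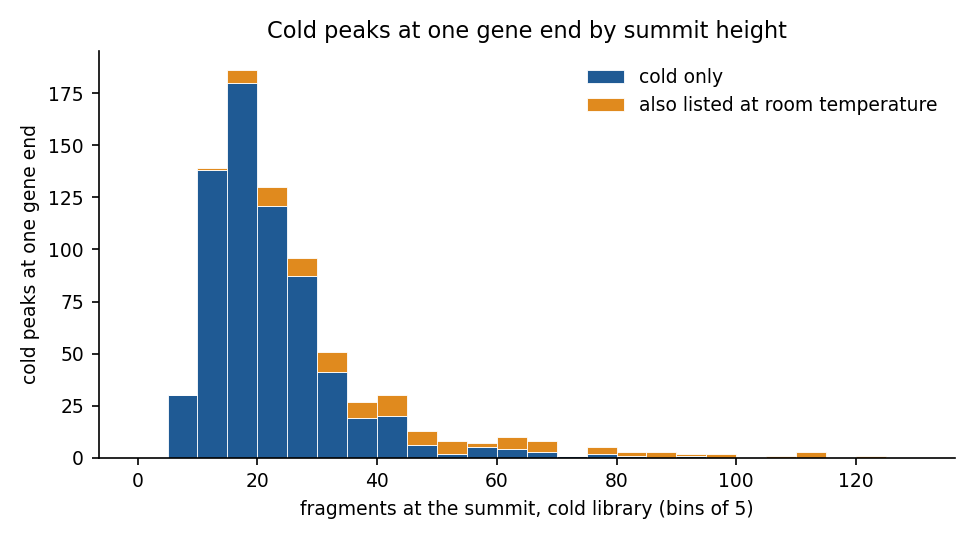
Cold peaks at the end of 1 protein-coding gene by the number of fragments at the summit in the cold library (x axis, bins of 5 fragments), as stacked bars of peak counts (y axis) for 661 cold-only peaks and 95 peaks that were also listed at room temperature. The cold-only peaks fill the bars on the left, with a median of 19 fragments, and the peaks listed in both libraries, with a median of 42, make up most of the bars beyond 61 fragments.

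Of the 756 cold peaks at a single gene end, 661 were cold-only (87.4%, 84.9 to 89.7), against 87% of all cold peaks (1095 of 1259), so this share was near that of the whole list. It was lower for higher cold peaks. All 45 peaks of up to 10 fragments were cold-only, 331 of 340 with 11 to 20 fragments (97.4%), 186 of 204 with 21 to 30 (91.2%), 57 of 75 with 31 to 40 (76%), 31 of 56 with 41 to 60 (55.4%, 41.5 to 68.7) and 11 of 36 with 61 or more (30.6%, 16.3 to 48.1). Low cold peaks were therefore nearly all cold-only, while high ones were mostly listed in both libraries. The height is part of what decides a listing, so this is a description.

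How low a room temperature peak could be and still be listed was computed from the lowest −log10 p of that list, 5.18. At the local backgrounds of the 661 peaks in the cold library, a summit would have needed a median of 7 fragments to reach it (range 6 to 14). At the 95 single-gene summits listed in both libraries, each cold pileup was divided by the highest room temperature pileup overlapping its interval. The median ratio was 3.05 (quartiles 2.47 and 3.79), and the cold pileup was higher at 94 of the 95. The exception was a lower summit at Srsf3 (11 against 22), in an interval whose main cold summit carried 53. Cold summits that share an interval, as at Hcfc1 and Ddx17, were set against the same room temperature value. Divided by the median ratio, 444 of the 661 cold-only pileups (67.2%, 63.4 to 70.7) came out under the number needed. The remaining 217 carried 19 to 92 fragments, with a median of 29, and came out at or over it. For Txndc15 the divided value was 30.2 against 7 needed, for Usp31 27.2 against 6, and for Xpo6, a nuclear exporter gene on a background of 3.32 fragments, 13.8 against 14 needed. This arithmetic takes the backgrounds to be alike in both libraries, and the ratio comes only from peaks high enough at room temperature to be listed there. It also uses 1 ratio at all heights, which the interval of the share does not cover. Among the highest summits listed in both, the ratio was 4.52 at Psmb5 and 10.1 at Oxsr1, but 3.09 at Septin7. Among the lowest it was 1.89 at Akap8l and 1.36 at Atp5e.

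The peaks sat close to the gene end, and that end was the start of transcription nearly throughout. The median distance to the gene end was 130 bp (quartiles 74 and 274), and 256 peaks lay within 100 bp, 479 within 250 bp (72.5%, 68.9 to 75.8) and 574 within 500 bp. The promoter table gives the strand of the genes of 538 peaks, of which 535 lay at the end where transcription starts (99.4%, 98.4 to 99.9). The other 3 lay where it stops, at Sec14l2, a lipid transfer protein gene, with 15 fragments, at the linker histone gene H1f2 with 25, and at Bad, which encodes a regulator of cell death, with 34. This label used the gene interval and its strand. Measured to the nearest annotated start of the gene, 523 of the 538 summits lay within 1 kb (97.2%, 95.4 to 98.4). The positions ranged from −71318 to 21929 bp. Just inside the limit of 1 kb were peaks at Cox20 (951 bp), Tcf4 (958 bp) and Top1 (997 bp), and just outside it were cold-only peaks nearest to Mrpl45 (1011 bp), Git2 (1022 bp) and Rprd2 (1035 bp).

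Most summits lay a little downstream of the start. The median position was 65 bp after the nearest annotated start (quartiles −39 and 120), and 389 of 538 summits were downstream (72.3%, 68.3 to 76). The fullest stretch of 50 bp ran from 50 to 100 bp after the start and held 139 summits. The highest peaks differed from this. Among those of 61 or more fragments whose gene has a promoter entry, all but Wdr75 (194 bp) had the summit before the start. Their positions ran from −26 bp at Txndc15 to −160 bp at Mcmbp. Of the 79 single-gene peaks listed in both libraries whose gene has a promoter entry, 47 had a downstream summit (59.5%, 47.9 to 70.4), with a median position of 23 bp. These intervals overlap, and the difference was not tested. The groups also differed in height, with a median of 19 fragments for the cold-only peaks and 42 for those listed in both. Positions were not compared at matched height.

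**Figure D2:**
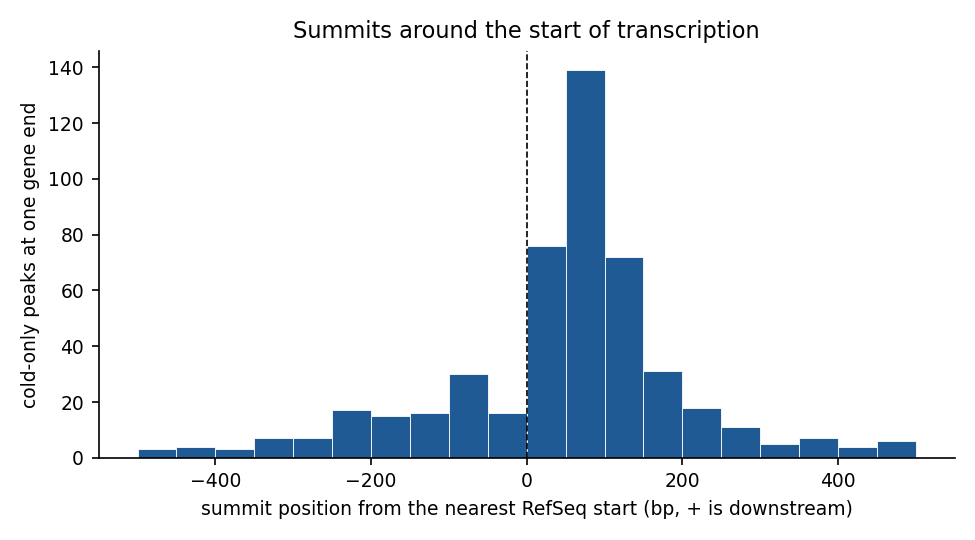
Position of the summits of cold-only single-gene peaks relative to the nearest RefSeq start of their gene (x axis, bp, positive values downstream, bins of 50 bp), as counts of peaks (y axis). The dashed line marks the start, and the highest bar, from 50 to 100 bp downstream, holds 139 of 538 peaks.

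The gene end was not the only feature at some of these peaks. A lncRNA gene end lay within 1 kb of 83 summits (12.6%, 10.1 to 15.3), for example Gm34736 at Lemd2, and a further protein-coding gene end lay between 1 and 3 kb from 78 summits (11.8%). A room temperature interval lay within 1 kb of 3 of the peaks, so nearly all lay farther than that from any listed room temperature peak. The peaks were spread over 21 chromosomes, with 70 on chromosome 11, 53 each on 2 and 7, 11 on X and 3 on Y.

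At 14 genes 2 peaks qualified, and at 10 of these both summits lay in the same interval. The summits of a gene were 315 to 1198 bp apart. Cox20, which encodes an assembly factor of cytochrome c oxidase, had summits of 43 and 18 fragments, and Fmc1, an assembly factor gene of the ATP synthase, 35 and 24. The histone methylation reader gene Kmt2e had 31 and 11, and Atf4, a transcription factor of the integrated stress response, 17 and 16. The other 10 genes were Emsy, Epc1, H2-DMa, Hnrnpa0, Hsp90ab1, Ing4, Mpdu1, Rab22a, Rbm39 and Ube3a, with 6 to 28 fragments.

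Of the 10 sequences searched, those of YY1 differed most in share from the other promoters. AANATGGCG was present in the promoters of 182 of the 527 genes (34.5%, 30.5 to 38.8), against 3.64% of all 17492 protein-coding genes with a promoter entry and 1.77% (1.58 to 1.99) of the 16470 genes without a cold peak at an end. The shorter AANATGGC was found in 48% (43.7 to 52.4) against 7.46% of all genes, and ATGGCGG, which overlaps both, in 35.5% (31.4 to 39.7) against 6.05%. At least 1 of these 3 was present in 299 of the 527 genes (56.7%) and in 11% of all genes. The rule that chose the peaks used no sequence. Genes are not independent samples, and the intervals cover counting error only.

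The promoters also differed in base composition. At 84.2% of the promoters of these genes the observed CpG count was at least 0.6 times that expected from the C and G content, against 47.7% of all promoters. Among genes with such a CpG-rich promoter, AANATGGCG was present in 36% (31.7 to 40.6) of those with a cold-only single-gene peak and in 3.07% (2.7 to 3.47) of those without a cold peak. The motif share thus differed also among promoters above this CpG limit, within which CpG content was not matched. A match describes the letters and does not show binding.

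Other promoter sequences differed less. CCGGAAGT, the ETS factor sequence, was in 10.1% (7.62 to 12.9) of the genes against 5.69% of all, CGCATGCG (NRF1) in 7.21% against 2.77%, the sequence CCAATCA, bound by NF-Y, in 15.9% against 10.5% and the E-box, searched as CACGTG, in 12.7% against 8.91%. TGACGTCA, the CRE, was in 4.74% against 2.54%, and GGGGCGGGG (SP and KLF factors) in 21.4% against 17.3%. TATAAA, the TATA box, was rarer, at 6.83% (4.83 to 9.33) against 14.8%. Among CpG-rich promoters the ETS sequence was at 10.2% (7.64 to 13.3) against 9.3% in genes without a cold peak, the TATA box at 6.82% against 7.99%, the E-box at 11.9% against 12.6% and the CRE at 5.12% (3.31 to 7.52) against 3.87%, so these 4 differences were within the intervals there. NRF1 at 8.1% (5.8 to 11) against 4.75% and the NF-Y sequence at 15.8% (12.6 to 19.4) against 11.5% still lay outside them. The SP and KLF sequence turned the other way, at 22.2% (18.5 to 26.2) against 29.5%.

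**Figure D3:**
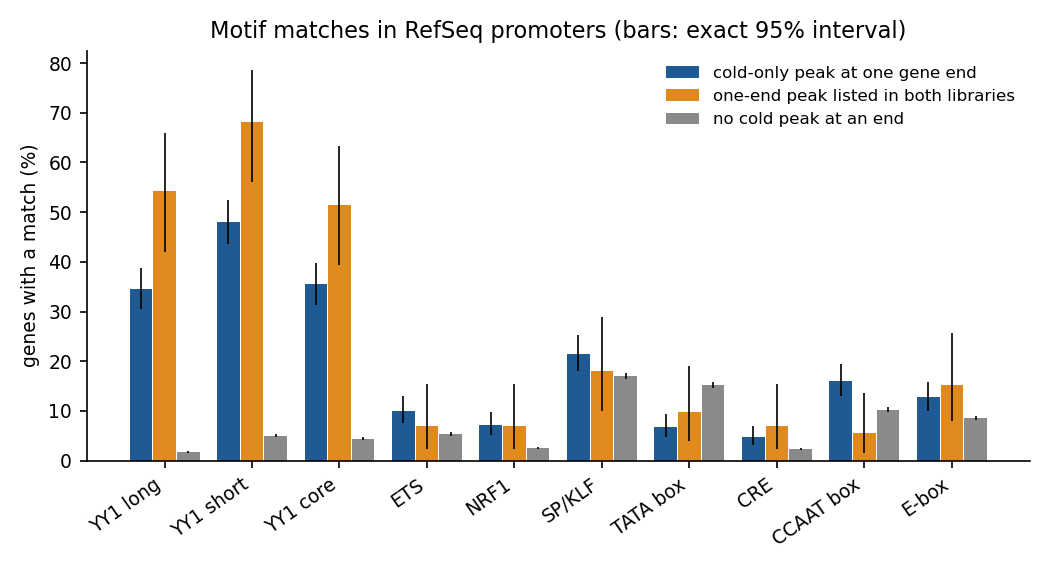
Share of genes whose RefSeq promoter holds an exact match on either strand (y axis, percent) for 10 sequences (x axis), with bars for genes with a cold-only single-gene peak (n = 527), with a single-gene peak listed in both libraries (n = 72) and without a cold peak at an end (n = 16470), and lines for exact 95% intervals. The long YY1 motif reaches 34.5%, 54.2% and 1.77% in this order, while the sequences other than those of YY1 stay at 21.4% or less in all 3 groups.

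The motif was more frequent in the promoter windows of genes with high peaks. It was present in the promoters of 38 of 168 peaks with 6 to 15 fragments (22.6%, 16.5 to 29.7), 41 of 114 with 16 to 19 (36%), 49 of 122 with 20 to 25 (40.2%) and 60 of 134 with 26 to 92 (44.8%, 36.2 to 53.6). Genes with single-gene peaks listed in both libraries held it in 39 of 72 cases (54.2%, 42 to 66), and genes at cold-only peaks with 2 or more gene ends in 99 of 357 (27.7%, 23.1 to 32.7). Split at 30 fragments, it was present above the split at 32 of 79 cold-only peaks (40.5%, 29.6 to 52.1) and 30 of 57 peaks listed in both (52.6%, 39 to 66). At 30 fragments or fewer it was present at 156 of 459 (34%, 29.7 to 38.5) and 12 of 22 (54.5%, 32.2 to 75.6). The intervals overlapped on both sides of the split, and heights were not matched within them, since more of the peaks listed in both lay above 60 fragments. The promoter table ends 50 bases after the start, while many summits lay beyond it. At the 170 peaks whose summit fell inside the promoter window the motif was present in 83 (48.8%, 41.1 to 56.6), and at the other 368 in 105 (28.5%, 24 to 33.4). Among the 12 highest peaks, all with a promoter entry except Wdr75 had the summit inside the window. The rise of the motif share with height was therefore not separated from the reach of the window.

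The matches had a preferred place and direction. Of the 196 matches in 613 promoters of these genes, 132 began after the start (67.3%, 60.3 to 73.9), although the window leaves only 42 positions there for a match to begin, and 107 of these 132 read in the direction of the gene (81.1%, 73.3 to 87.4). The downstream matches in the direction of the gene began at a median of base 22 of the transcript (quartiles 14.5 and 28). The distance from a match to the summit had a median of 38 bp (quartiles 21 and 58), and 129 of 191 distinct sites lay within 50 bp of a summit (67.5%, 60.4 to 74.1). ETS sequences in the same promoters lay at a median of 104.5 bp from the summit, with 10 of 58 within 50 bp, and NRF1 sequences at 199 bp, with 0 of 41. Of the sequences other than those of YY1, the E-box had the highest share within 50 bp, 15 of 74 (20.3%, 11.8 to 31.2). Positions within the promoter window were not matched between sequences. Downstream matches were mostly in the direction of the gene also in genes without a cold peak at an end (124 of 159, 78%, 70.7 to 84.2). Downstream matches in that direction were far rarer there, at 0.62 against 17.5 per 100 promoters. Upstream matches in genes with a cold-only single-gene peak read in the direction of the gene at 45 of 64 (70.3%, 57.6 to 81.1). In genes without a cold peak at an end, 68 of 144 upstream matches did (47.2%, 38.9 to 55.7). This difference was not tested.

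**Figure D4:**
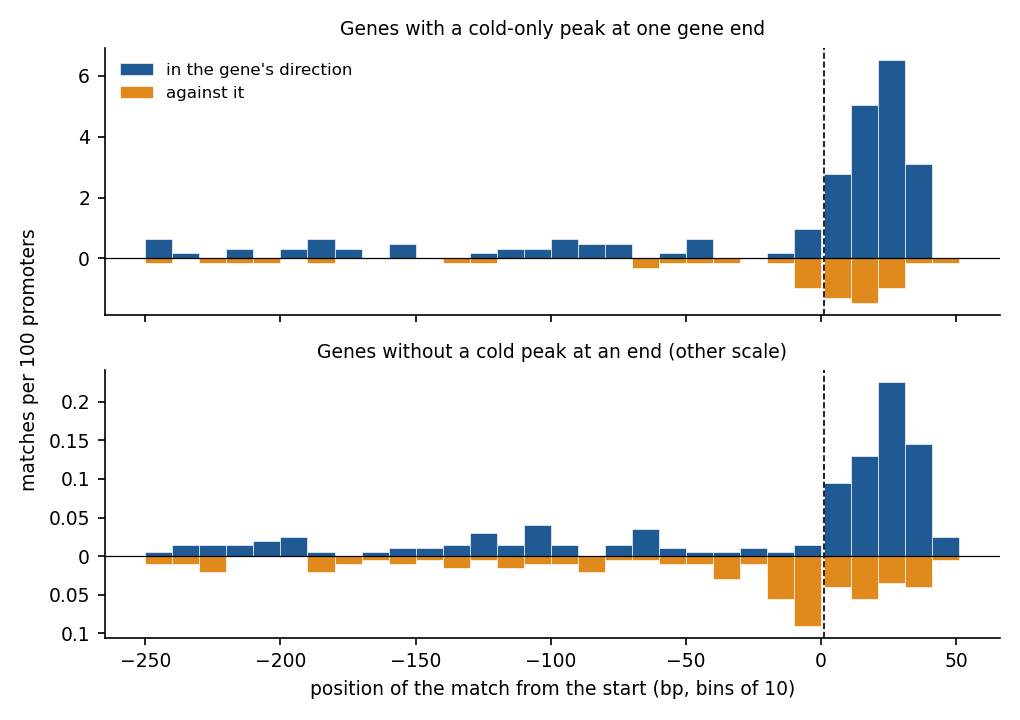
Matches of the long YY1 motif per 100 promoters (y axis, bars up for matches in the direction of the gene and down for matches against it) by position from the start of transcription (x axis, bins of 10 bases, dashed line at the start), for genes with a cold-only single-gene peak (upper panel) and genes without a cold peak at an end (lower panel, other y scale). The tallest bar of the upper panel, bases 21 to 30, stands at 6.53 per 100 promoters.

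Not all strong peaks had the motif in the window. Tor1a, with 61 fragments at a summit 55 bp before the start, and the splicing factor gene Tra2b, with 54 fragments 606 bp after the start and so outside the window, were the strongest whose promoters held none of the 3 YY1 sequences. They are printed for comparison with those above, again from 250 bases before the start.

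Tor1a (chr2:30967889-30968168, - strand): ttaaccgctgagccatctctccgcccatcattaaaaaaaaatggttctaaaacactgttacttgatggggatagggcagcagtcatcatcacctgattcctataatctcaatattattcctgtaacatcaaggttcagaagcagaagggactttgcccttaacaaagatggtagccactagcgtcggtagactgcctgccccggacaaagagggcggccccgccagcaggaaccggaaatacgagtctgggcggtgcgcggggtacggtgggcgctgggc
Tra2b (chr16:22265976-22266255, - strand): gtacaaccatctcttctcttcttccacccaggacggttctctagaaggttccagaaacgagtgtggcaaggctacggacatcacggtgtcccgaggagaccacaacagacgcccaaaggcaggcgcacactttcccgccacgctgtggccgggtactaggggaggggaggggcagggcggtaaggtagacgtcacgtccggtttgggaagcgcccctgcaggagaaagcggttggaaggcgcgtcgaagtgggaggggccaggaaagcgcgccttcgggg

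The genes under these peaks were grouped by 27 lists of gene symbols. Most lists are patterns of symbols, so they can miss genes of the group they are named after. Of all 21887 protein-coding genes, 2.96% had a cold-only single-gene peak. The share was above this in 22 lists, with the whole interval above it in 15, and below it in 5. At least 1 list held 239 of the 647 genes. The lists were not matched on expression, and no test was made.

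Among mitochondrial genes, the share was highest of all 27 lists for the mitochondrial ribosome and lower for respiration. Their intervals overlapped, also with that of the cytosolic ribosome, so this order is not resolved by counting error. Of 78 genes of the mitochondrial ribosome, which makes the respiratory subunits encoded in mitochondrial DNA, 13 had such a peak (16.7%, 9.18 to 26.8), led by Mrps18a with 42 fragments, Mrpl11 and Mrpl52 with 31 each and Mrps9 with 29. Counting every cold peak at a gene end, also those at several ends or listed in both libraries, 28 of the 78 had one. This wider count was 31 of 110 for the respiratory complexes, 33 of 138 for splicing and 19 of 84 for the cytosolic ribosome. Of all 17492 protein-coding genes with a promoter entry, 16470 had no cold peak at an end. Of 110 genes of the respiratory complexes 13 had a cold-only single-gene peak (11.8%, 6.45 to 19.4), with 11 to 34 fragments and a median of 22. They included Sdhb of complex II and the haem synthesis gene Cox10 with 34 each, and the complex I genes Ndufa9 with 32 and Ndufs7 with 27. Their promoters held the YY1 motif in 7 of 13 cases, against 2 of 62 promoters of respiratory genes without a cold peak at an end. Over all lists the motif was in 71 of 193 genes with a cold-only single-gene peak (36.8%), and single lists varied on few genes, with 1 of 6 for translation factors, 1 of 6 for RNA helicases, 5 of 21 for zinc finger genes and 1 of 11 for Tmem genes. Of 33 genes of mitochondrial import and chaperones 4 had a peak, Timm44 (24 fragments), Hspa9 (19), Timm21 and Timm50. Of 36 genes of fatty acid oxidation only Ech1 did.

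Cytosolic protein synthesis was represented by ribosome and translation factor genes. Of 84 cytosolic ribosomal protein genes 13 had a peak (15.5%, 8.51 to 25), with 9 to 59 fragments. Rpl13a was highest, its motif lying 279 bp from the summit, and Rpl18 carried 29. Of 71 translation factor genes 8 had one (11.3%, 4.99 to 21), led by Eif3e with 37 and the elongation factor gene Eef1a1 with 33. Of 34 aminoacyl-tRNA synthetase genes in the list, whose enzymes charge tRNAs with amino acids, Yars2 (37), Nars (34) and Lars2 (25) had a peak. The synthetase gene Farsa, with 41 fragments, also had one but is not matched by the list. Ribosome biogenesis and RNA exosome genes had 6 of 59, with Utp20 (38) after Exosc2 and Wdr75.

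RNA processing and transcription followed. Of 138 genes in the splicing list 17 had a peak (12.3%, 7.34 to 19), among them Snrnp35 of the minor spliceosome with 49 fragments, Rbm5 with 34 and Sf3b1, a core factor of branch point recognition, with 32. The splicing factor gene Tra2b, named above with 54 fragments, is not matched by the list. The RNA helicase genes had 6 of 53, led by Ddx39b with 32. Of 118 genes of the general transcription machinery and Mediator 16 had one (13.6%, 7.95 to 21.1), with the elongation factor gene Supt5 at 56 fragments, the TFIID subunit genes Taf8 at 35 and Taf5 at 29 and the Mediator gene Med1 at 27. Chromatin regulators had 14 of 114 (12.3%, 6.88 to 19.7), led by the histone acetyltransferase gene Kat7 with 45, Arid4a with 38 and the demethylase gene Kdm3a with 32. The INO80 complex, with which YY1 works, was represented by Actr5 and Ino80b with 12 fragments each, while Yy1 itself was not among these genes.

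Proteasome and phosphatase genes had shares near those of transcription and splicing, while ubiquitin enzyme and vesicle traffic genes had lower ones. The proteasome had 7 of 51 genes (13.7%, 5.7 to 26.3), led by Psmd7 with 34 fragments and Psmb7 with 26, and protein phosphatase subunits 11 of 78 (14.1%, 7.26 to 23.8), led by Ppp1r15b, which encodes a subunit that restrains the integrated stress response, with 33, and Ppp4r3a with 30. Nuclear transport genes had 6 of 59, led by Xpo6 with 42. The shares were 4.83% for 373 ubiquitin enzyme genes, 5.32% for 489 zinc finger genes, 5.03% for 298 genes of vesicle traffic, 6.7% for 209 centrosome and cilium genes, 5.97% for 67 lysosome and autophagy genes, 4.88% (6 genes) for DNA replication and repair and 4.62% for 238 Tmem genes. Zfp563 carried 58 fragments, the cargo receptor gene Tmed10 41, the coat protein gene Sec23b 40, Cep250 34 and the autophagy marker gene Map1lc3b 31. Across the 24 lists with any such gene, the median pileup of the genes ranged from 15 fragments (RNA helicases) to 34 (aminoacyl-tRNA synthetases), apart from the single fatty acid oxidation gene, against 19 over all 661 peaks.

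**Figure D5:**
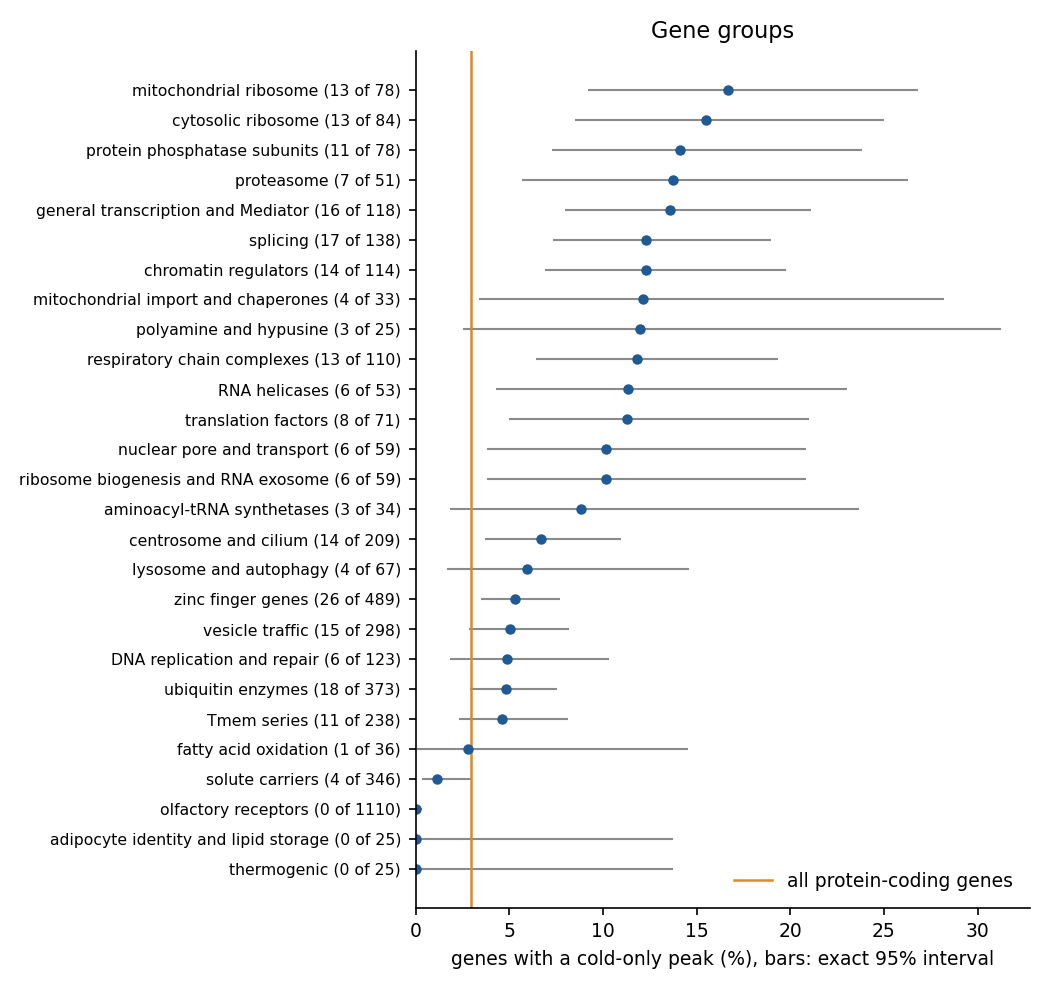
Share of the genes of each list with a cold-only single-gene peak (x axis, percent, points with exact 95% intervals) for 27 gene lists (y axis, with counts), and the share of all protein-coding genes as a vertical line at 2.96%. The mitochondrial ribosome stands highest at 16.7%, and olfactory receptors, thermogenic genes and adipocyte genes stand at 0.

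Polyamine genes bear on spermidine, named in the study's title. Of 25 genes 3 had a cold-only single-gene peak (12%, 2.55 to 31.2), an interval that includes the 2.96% of all genes. They were Oaz1, the antizyme gene that restrains polyamine synthesis, with 31 fragments (21.1 to 44), and both genes of hypusine synthesis, a modification made from spermidine, Dhps with 27 (17.8 to 39.3) and Dohh with 23 (14.6 to 34.5). All 3 promoters held the YY1 motif, at 42, 15 and 33 bp from the summit in this order, against 0 of 15 polyamine genes with a promoter entry and no cold peak at an end. These sites were chosen after their values were seen and are shown with the match in capitals, which at Oaz1 lies on the strand opposite to the gene.

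Oaz1 (chr10:80826666-80826695): gtcggcgccggCGCCATTTTgcgaacggcg
Dhps (chr8:85071651-85071680): aacacagggatAAAATGGCGgctaccagga
Dohh (chr10:81384437-81384466): acgtggccatcAAGATGGCGgcgtccagag

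Some groups held none of these peaks or few. None of 25 thermogenic genes, a list with the uncoupling protein gene Ucp1, and none of 25 genes for fat storage and adipocyte identity, with Adipoq, Pparg and Fabp4, had a cold-only single-gene peak. Counting every cold peak at a gene end, 1 of the adipocyte genes and 0 of the thermogenic genes had one, and 1 adipocyte gene had a room temperature peak at an end. Most genes had no cold peak at an end, 16470 of 17492 with a promoter entry, so these wider counts show no lower share either. For cold-only single-gene peaks, the interval for 0 of 25 reaches 13.7%, above the share of all genes, so neither count shows a lower share. Of 1110 olfactory receptor genes, which are silent in most tissues, 0 had one (upper bound 0.332%), and of 346 solute carrier genes 4 did (1.16%, 0.316 to 2.93), led by the mitochondrial carrier gene Slc25a44 with 36 fragments. Among 8 markers each of macrophages, preadipocytes or fibroblasts, endothelium, lymphocytes and mammary epithelium, the endothelial adhesion gene Pecam1 was the 1 gene with such a peak, with 18 fragments (10.7 to 28.4). Binding does not measure expression, so these lists do not test the purity of the adipocytes.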

How the data were processed

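YY1 peak lists of 2 libraries, 1 per condition, were used as the authors deposited them. The tools named per the submitters' processing notes are DESeq2, deepTools, MACS2, SAMtools and BWA, with build mm10. The sources used here give neither their versions and settings nor whether a control was used. Each list gives a score, a fold enrichment (a linear ratio), a −log10 p, a −log10 q and a summit, all deposited by the authors, and no read counts, so the depth of the libraries is unknown. The fold was read as (pileup + 1) / (background + 1), with 1 as the pseudocount, and the p as the Poisson chance of exceeding the pileup. The whole pileup that met both values was taken, with a mismatch of at most 0.0002 on the −log10 p scale, and 0 of the 661 peaks had a second solution.

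Genes and promoters came from RefSeq tables of GRCm38.p6, with 21887 nuclear protein-coding genes, and coordinates are 1-based. Intervals are exact at 95% (Poisson for pileups, Clopper-Pearson for shares) and cover counting error only. No p-value was computed. Named are the 12 highest peaks, up to 4 per gene list, peaks at the distance limit and genes with 2 peaks. Farsa was named in addition, as a gene that its list missed. Sequences are those of the 6 strongest peaks with the long motif, the 10 strongest with a downstream site, which include 2 of these 6, and the 2 strongest without any of the 3 YY1 motifs, leaving out chromosome 18. The peaks and lists were chosen with earlier results of these data known. The steps were tested on simulated data. Python 3.11.15, NumPy 2.4.6, pandas 2.3.3, SciPy 1.17.1 and Matplotlib 3.10.9 were used. The alternatives covered the overlap, the −log10 q, the gene end window, lncRNA ends, intervals and the motif.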

Additional observations from a re-analysis of the deposited data

How the results depend on the processing

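No paired analysis was possible because there is only 1 library per condition, and none could be left out. Of 33 values of the main results under an alternative, 31 kept to the reported interval or quartiles, or, for counts, to within 1.5 times the reported value. The number of cold-only single-gene peaks ranged from 614 (lncRNA ends counted too) to 678 (reciprocal overlap of 50%). The share of genes with the YY1 motif, 34.5%, moved to 48% with AANATGGC and to 48.8% with only the summits inside the promoter window. The alternatives with only CpG-rich promoters (36%) and only the promoter nearest to the summit (34.3%) were chosen after seeing the data. Of 96 counts of single gene lists 94 stayed, and the fatty acid oxidation count of 1 became 2 within 500 bp and 0 within 3 kb. In each of these cases the cause was not tested. The missing replicates limit each comparison between conditions.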
